A study of Homo sapiens with 6 samples.

Results

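The potassium channel genes described here are the protein-coding genes whose symbol starts with KCN, and they were chosen by name only. The table used here held 16922 genes, of which 30 were KCN genes, out of 96 protein-coding KCN genes in GENCODE release 44. The 17 protein-coding KCTD genes of the table, of 21 annotated, served as a contrast, because their products share a tetramerization domain with potassium channels but mostly form no pore. The other 66 KCN genes and KCTD8, KCTD15, KCTD16 and KCTD19 have no row in the table used here, and 5 rows with such symbols but another biotype were left out.

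RNA was measured by paired-end sequencing in 3 libraries labelled 786-O FOXD1null and 3 libraries labelled 786-O parent. 786-O is an established clear cell renal cell carcinoma line, and the FOXD1null derivative, which the study's laboratory made in earlier work, is described as lacking the forkhead transcription factor FOXD1. Both lines grew in the same serum-containing medium, with no treatment named in the labels, and were harvested at 70% confluency. The labels and methods do not give the allele of FOXD1 or the number of clones in the derivative, so that a difference between the lines and a difference between clones cannot be told apart. The 3 libraries of each line are described as biological triplicates, and p-values measure the spread between them.

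Potassium channels are membrane proteins that let potassium leave the cell and so hold the membrane potential negative. Voltage-gated (Kv) channels open on depolarization, inward rectifiers (Kir) pass current better into than out of the cell, two-pore-domain (K2P) channels give a steady leak, and calcium-activated channels couple calcium to the membrane potential. In the kidney tubule, they recycle potassium across the membrane beside the sodium pump and secrete it into urine. Auxiliary subunits form no pore and change the surface number or the gating of the channel they bind.

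FOXD1 itself had 1277, 1048 and 901 normalized counts in the libraries labelled FOXD1null, against 432, 498 and 480 in the 786-O libraries (log2 fold change 1.18, standard error (SE) 0.13, limma adjusted p = 3.9e-04). Its RNA was thus higher, not lower, in the libraries that carry the null label, and every direction below is given by that label. A normalized count is a read count divided by the size factor of its library, and the libraries held between 30982463 and 37843830 reads in genes. Of 15 markers of clear cell carcinoma and renal epithelium, 13 had a row, of which 6 were higher, 2 lower and 5 did not pass. PAX8 stood at 7964 to 8076 normalized counts in the libraries labelled FOXD1null and at 6518 to 6846 in 786-O, while CDH6 fell to 6431 to 8359 in the libraries labelled FOXD1null, against 25953 to 27838 in 786-O, and PAX2 was the other marker that fell. None of the 6 endothelial markers had a row. Replicate 1 of FOXD1null stood apart from the other 2: among the 882 genes that fell by a log2 of at least 1, it lay a median of 16.3% of the way from the mean of those 2 libraries to the mean of 786-O, and among the 543 that rose by at least 1 a median of 24.0%. Replicate 2 of 786-O carried muscle RNA, with MYH7 at 1248 normalized counts against 0 and 21.2 in the other 786-O libraries. MYH7 was also raised in replicate 1 of FOXD1null, at 109 normalized counts against 1.01 and 0 in replicates 2 and 3. The count of KCN genes is also given below without each library in turn, and other counts without FOXD1null replicate 1 where that changed them.

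Of the 30 KCN genes, 15 passed the test (limma on log2(normalized count + 1), Benjamini-Hochberg adjusted p at or under 0.05 over 16901 genes), 8 with more and 7 with less RNA in the libraries labelled FOXD1null. Over all genes tested, 33.4% passed, 16.3% higher and 17.1% lower, and over the 12908 protein-coding genes tested 38.2% passed. The 8 that rose were KCNH2, KCNC4, KCNQ5, KCNS3, KCNJ15, KCNK1, KCNK3 and KCNIP3, and the 7 that fell were KCNA7, KCNJ16, KCNJ8, KCNK2, KCNN4, KCNIP1 and KCNAB3. Of the 30 genes, 12, or 40.0%, passed with a change of 1 log2 unit or more, with 6 in each direction, against 8.43% of all genes tested. The median size of the log2 fold change was 0.50 over the KCN genes, 0.30 over the KCTD genes and 0.26 over all genes tested. The KCN genes stood at a lower level, with a median of 66.9 for the mean normalized count, against 550 over all genes. A mean under 100 was held by 17 of 30 KCN genes, against 5097 of 16901 genes. These shares and sizes of change were not matched on level. The signed median was close to 0 in each set, at 0.10 for KCN, -0.05 for KCTD and -0.01 for all genes. The values of the 2 lines did not overlap for 18 KCN genes, or 60%, against 49.0% of all genes tested. With 3 libraries against 3, an exact permutation test of a single gene cannot go below p = 0.1. All 30 KCN and all 17 KCTD genes passed the filter on low values, a mean of at least 10 normalized counts over the 6 libraries. KCNIP1, KCNJ8 and KCNK2, which fell, reached it only through 786-O, with means of 65.2, 60.4 and 24.7 there. Their means in the libraries labelled FOXD1null were 7.25, 9.31 and 5.66. Without FOXD1null replicate 1, 17 KCN genes, or 56.7%, passed, near the 55.0% of all genes and under the 63.1% of protein-coding genes. With DESeq2 on the recovered reads 14 KCN genes, or 46.7%, passed, against 34.6% of all genes and 40.1% of protein-coding genes.

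**Figure D1:**
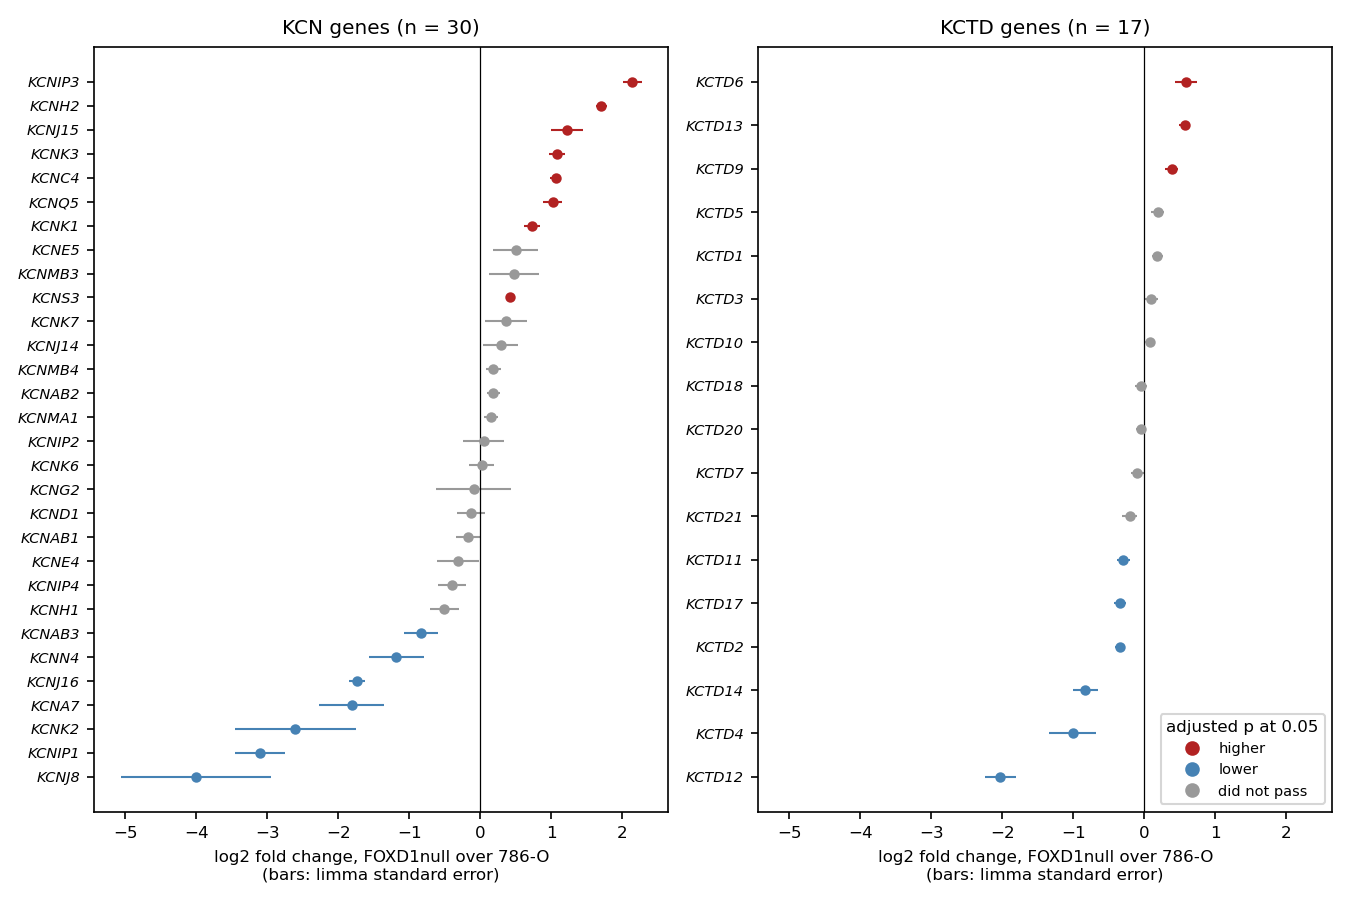
The log2 fold change of each KCN gene (left) and KCTD gene (right), libraries labelled FOXD1null over 786-O, with the limma standard error as bars; red points passed higher, blue points passed lower and grey points did not pass. KCN genes reach from -4.01 for KCNJ8 to 2.14 for KCNIP3, while 15 of the 17 KCTD genes lie within 1 of 0, with KCTD4 at -1.01 and KCTD12 at -2.03 outside.

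Of the 13 KCN genes with a mean of at least 100 normalized counts, 8 rose, 1 fell and 4 did not pass, where 38.0% of all tested genes at that level passed, 19.9% higher and 18.1% lower. Of the 17 KCN genes with a mean under 100, 0 rose by limma, 6 fell and 11 did not pass, where 22.7% of such genes passed, 7.87% higher and 14.8% lower. At an unadjusted p under 0.05 the number higher among those 17 was also 0, as it was with DESeq2 and with edgeR. Without FOXD1null replicate 1, where 4635 of all 16901 genes tested rose and 4667 fell, 10 of the more abundant KCN genes rose and 1 fell. Of the KCN genes with a mean under 100, 0 rose and 6 fell in that setting. All 8 that rose therefore belonged to the more abundant genes, and KCNJ16 was the only abundant KCN gene that fell. The boundary of 100 was chosen after the values were seen, and the split was not tested. A change of a low gene is measured on few reads, so that small changes of the 11 genes that did not pass were not detectable at this depth.

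**Figure D2:**
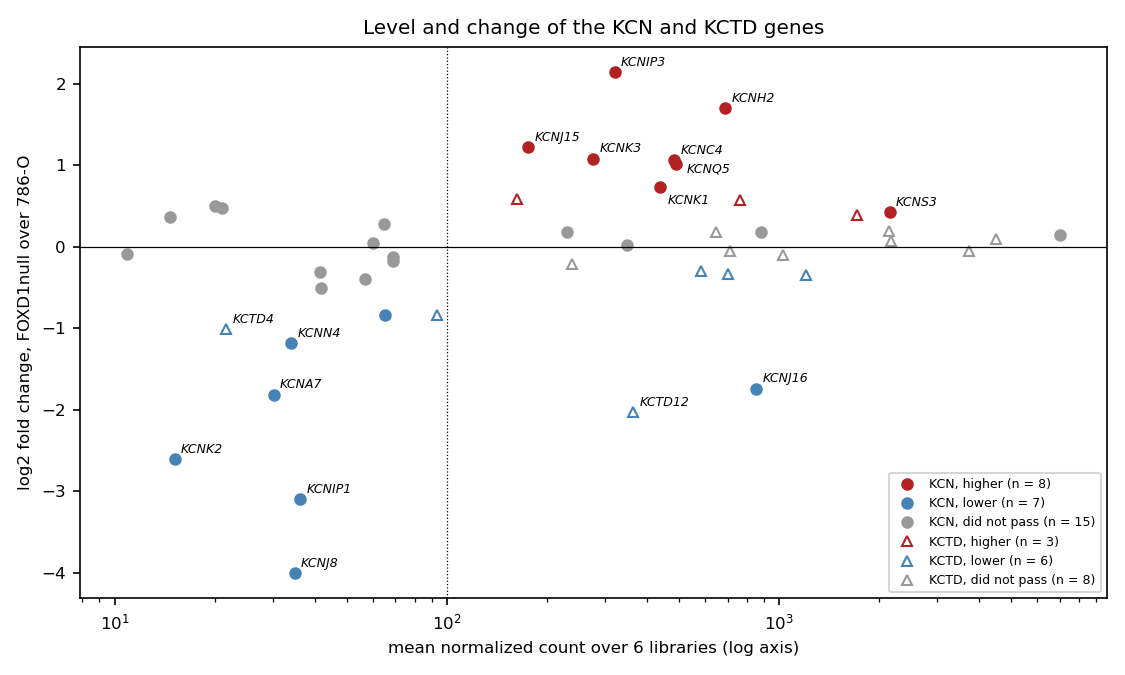
Mean normalized count over the 6 libraries (log axis) against the log2 fold change, libraries labelled FOXD1null over 786-O, for 30 KCN genes (filled circles) and 17 KCTD genes (open triangles); the dotted line marks a mean of 100. The 8 KCN genes that rose all lie right of the line, and 6 of the 7 that fell lie left of it.

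Short stretches of genome in front of 6 members are shown with their CG dinucleotides, for genes that rose and genes that fell. The genes shown were picked by hand from those that passed and do not stand for all members. Each line gives the 250 bases before the gene's start, read 5' to 3' on the gene's strand, from the RefSeq promoter windows of GRCh38.p14 (each 250 bases before and 50 after the start), with each CG in capitals. KCNH2 (chr7:150978322-150978571, minus strand), KCNC4 (chr1:110210064-110210313, plus strand) and KCNK3 (chr2:26692472-26692721, plus strand) rose. KCNIP1 (chr5:170353237-170353486, plus strand), KCNN4 (chr19:43780974-43781223, minus strand) and KCTD12 (chr13:76886406-76886655, minus strand) fell.
KCNH2: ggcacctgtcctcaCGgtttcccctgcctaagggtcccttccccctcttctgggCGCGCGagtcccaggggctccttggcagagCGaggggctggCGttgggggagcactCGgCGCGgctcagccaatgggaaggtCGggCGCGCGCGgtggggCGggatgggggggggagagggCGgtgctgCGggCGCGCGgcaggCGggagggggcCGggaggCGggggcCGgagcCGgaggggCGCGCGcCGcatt
KCNC4: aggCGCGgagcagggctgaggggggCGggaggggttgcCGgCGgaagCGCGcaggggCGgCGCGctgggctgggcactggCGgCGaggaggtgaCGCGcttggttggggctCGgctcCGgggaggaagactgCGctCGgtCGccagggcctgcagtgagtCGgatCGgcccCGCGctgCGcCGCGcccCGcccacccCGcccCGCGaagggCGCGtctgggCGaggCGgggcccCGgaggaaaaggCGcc
KCNK3: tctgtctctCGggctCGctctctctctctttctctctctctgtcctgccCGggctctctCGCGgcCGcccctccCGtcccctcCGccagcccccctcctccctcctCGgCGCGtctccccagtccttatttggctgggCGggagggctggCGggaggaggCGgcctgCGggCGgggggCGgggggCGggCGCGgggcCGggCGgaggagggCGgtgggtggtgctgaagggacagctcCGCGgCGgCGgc
KCNIP1: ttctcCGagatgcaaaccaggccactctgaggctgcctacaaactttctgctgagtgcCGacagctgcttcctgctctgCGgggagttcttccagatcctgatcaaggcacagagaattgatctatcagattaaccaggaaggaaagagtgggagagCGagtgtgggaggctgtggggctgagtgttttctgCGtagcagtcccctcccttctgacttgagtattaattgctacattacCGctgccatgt
KCNN4: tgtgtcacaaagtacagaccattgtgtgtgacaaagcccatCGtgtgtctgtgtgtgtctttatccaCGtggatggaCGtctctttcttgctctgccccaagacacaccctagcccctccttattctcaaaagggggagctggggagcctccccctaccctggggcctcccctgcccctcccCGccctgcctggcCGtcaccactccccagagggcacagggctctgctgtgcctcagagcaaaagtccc
KCTD12: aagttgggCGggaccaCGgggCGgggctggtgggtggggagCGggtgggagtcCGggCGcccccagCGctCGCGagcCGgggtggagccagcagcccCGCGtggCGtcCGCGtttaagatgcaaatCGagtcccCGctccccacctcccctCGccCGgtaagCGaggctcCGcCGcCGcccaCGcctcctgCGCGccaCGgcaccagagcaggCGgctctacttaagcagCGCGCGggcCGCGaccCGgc

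The stretches of KCNH2, KCNC4 and KCNK3 held 29, 36 and 27 CG dinucleotides, against 6 in KCNIP1 and 5 in KCNN4, and KCTD12, which fell, held 34. Windows were found for 41 of the 47 KCN and KCTD genes. Over the 8 windows of KCN genes that rose, the number of CG dinucleotides had a median of 28, with a range of 6 to 44, and over the 6 windows of KCN genes that fell it had a median of 5.5, with a range of 3 to 34. The 2 ranges overlapped, since KCNJ15 rose with 6 and KCNA7 fell with 34. All KCN genes that rose had a mean of at least 100 normalized counts, while all that fell but KCNJ16 had a mean under 100. Direction and level therefore cannot be told apart in these windows. The 13 windows of KCN genes that did not pass had a median of 16, and the 11416 windows of tested genes a median of 21. In the KCTD genes the order was less wide, with medians of 33 over 2 windows that rose and 26 over 5 that fell. These are descriptions with no test, and the start that RefSeq gives need not be the one these cells use: 23 of the 41 starts lay within 5 bases of the gene start in GENCODE, including all 6 shown. The core forkhead motif GTAAACA, searched on both strands of the 300-base windows, was in 0 of the 41, against 3.41% of all 27305 windows and 2.44% of those of tested genes. With GTAAATA allowed as well, and likewise the forms ATAAACA and then ATAAATA, 1 window, that of KCNJ16, held a match, against 13.9% of all windows and 7.80% of those of tested genes. No match says only that these letters are not in these windows.

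Per kilobase of exon, the mean level over the 6 libraries ran from 2.35 normalized counts for KCNMB3 to 688 for KCNS3. KCNS3, which encodes the silent subunit Kv9.3 that forms channels only with Kv2 subunits, was the highest in both lines, at 788 normalized counts per kilobase of exon in the libraries labelled FOXD1null and 588 in 786-O. KCNMA1, the pore of the large-conductance BK channel, had 188 per kilobase in the libraries labelled FOXD1null and 169 in 786-O. KCNK1, KCNH2 and KCNJ16 stood at 155, 146 and 62.2 per kilobase in the libraries labelled FOXD1null, and at 93.2, 44.9 and 207 in 786-O. KCNJ16 thus held rank 6 among the 30 genes in the libraries labelled FOXD1null and rank 2 in 786-O. KCNH2 held rank 4 in the libraries labelled FOXD1null and rank 7 in 786-O, and KCNIP3 held rank 5 in the libraries labelled FOXD1null and rank 16 in 786-O. Exon length here counts all annotated exons, which is long for KCNMA1, KCNC4, KCNAB2 and KCNMB3. Over canonical transcripts alone, KCNMA1 had a mean of 1123 per kilobase and KCNS3 had 919. The order of these 2 genes thus turned round. By the mean over the 6 libraries, KCNC4 moved from rank 12 to rank 7 on that length. KCNMB3 moved from 2.35 to 19.5 per kilobase, and KCNK2 became the lowest at 3.91. The ranks given above for each line were not recomputed on that length. The canonical length was added as an alternative after the data were seen.

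**Figure D3:**
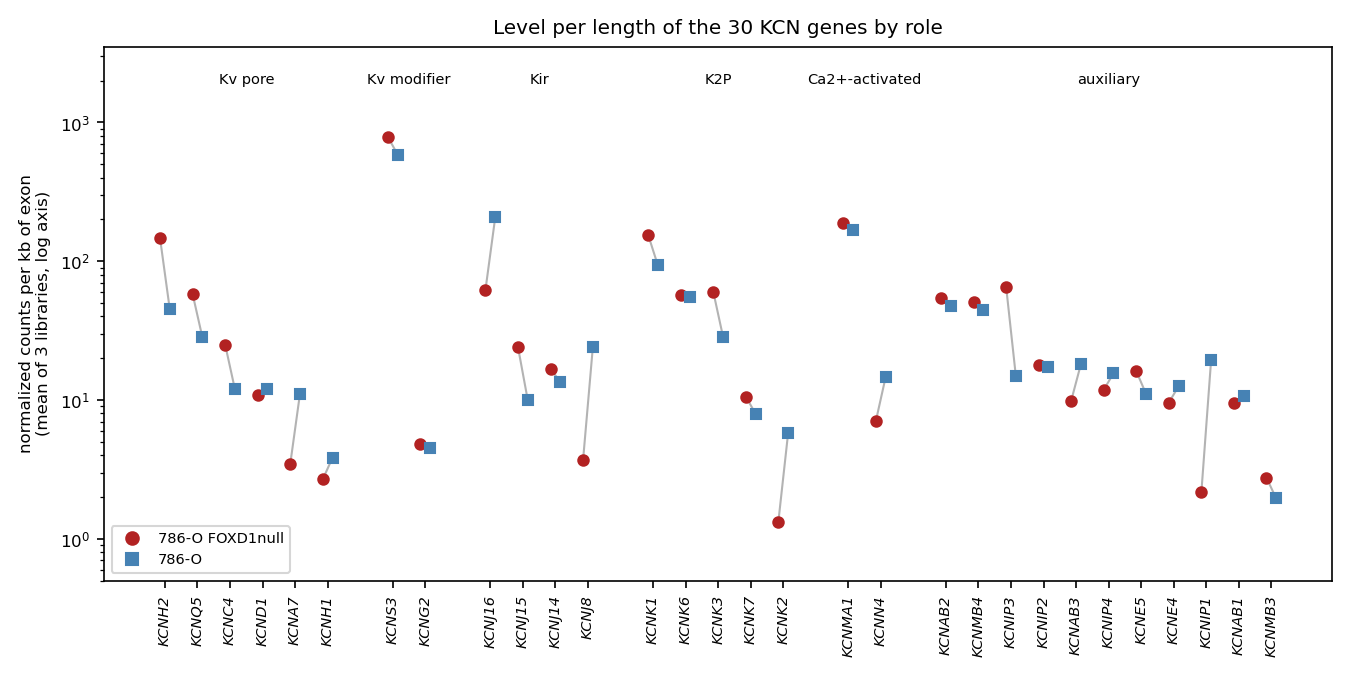
Mean normalized counts per kilobase of exon (log axis) of the 30 KCN genes, ordered within each role by their mean over the 6 libraries, with the mean of the 3 libraries labelled FOXD1null as red circles left and the mean of the 3 libraries of 786-O as blue squares right. KCNS3 is highest in both lines, and KCNJ16, at 62.2 against 207, is the abundant gene whose line runs upward to 786-O.

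Of the 6 voltage-gated pore subunits, 3 were higher, 1 was lower and 2 did not pass. KCNH2 encodes Kv11.1 (hERG), which carries the rapid delayed rectifier current that repolarizes the heart. It had 1047, 1101 and 1017 normalized counts in the libraries labelled FOXD1null, against 318, 321 and 332 in 786-O. The groups lay far apart, with every library labelled FOXD1null above every 786-O library (1055 ± 42.9 against 324 ± 7.41, SD, n = 3 each). The log2 fold change was 1.70 (SE 0.08, limma adjusted p = 2.5e-05), and 1.71 without FOXD1null replicate 1.

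KCNC4 encodes Kv3.4, a fast-inactivating channel of the Kv3 family. Its normalized counts were 641, 648 and 675 in the libraries labelled FOXD1null, against 308, 320 and 309 in 786-O, a ratio of the means of 2.10. It rose by a log2 fold change of 1.06 (SE 0.08, limma adjusted p = 7.0e-05), with no overlap between the groups. KCNQ5 encodes Kv7.5, one of the subunits of the neuronal M-current. It had 524, 709 and 740 normalized counts in the libraries labelled FOXD1null, against 300.2, 340.0 and 324 in 786-O (log2 fold change 1.02, SE 0.14, limma adjusted p = 1.0e-03). FOXD1null replicate 1 was the lowest of its group, still above all 786-O libraries, and without it the log2 fold change was 1.17.

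KCNA7, which encodes Kv1.7 of the Shaker family, moved the other way at a low level. It had 19.4, 5.05 and 18.5 normalized counts in the libraries labelled FOXD1null, against 46.9, 46.2 and 45.1 in 786-O. The 3 libraries of 786-O agreed within 2 counts, and all libraries labelled FOXD1null lay below them (log2 fold change -1.81, SE 0.45, limma adjusted p = 0.016). The 2 remaining pore genes did not pass. KCNH1, for Kv10.1, had means of 34.5 in the libraries labelled FOXD1null and 49.4 in 786-O (log2 fold change -0.51, limma adjusted p = 0.087) and passed only when the libraries were scaled to equal totals. KCND1, for Kv4.1, had means of 65.6 in the libraries labelled FOXD1null and 72.4 in 786-O (log2 fold change -0.13).

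Of the 2 modifier subunits, KCNS3 passed. It had 2438, 2544 and 2410 normalized counts in the libraries labelled FOXD1null, against 1885, 1733 and 1898 in 786-O. The rise was small next to those of KCNH2 or KCNC4 but larger than the spread, with no overlap (log2 fold change 0.42, SE 0.07, limma adjusted p = 0.0021). KCNG2, for Kv6.2, stood at 4.31 to 19.4 normalized counts in the libraries labelled FOXD1null and at 8.28 to 13.4 in 786-O, and did not pass.

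The 4 inward rectifiers split, with KCNJ15 higher, KCNJ16 and KCNJ8 lower and KCNJ14 not past the threshold. KCNJ16 encodes Kir5.1, which carries little current alone and forms channels with Kir4.1 or with Kir4.2, the product of KCNJ15, in the basolateral membrane of kidney tubule cells. Its normalized counts were 461, 370 and 352 in the libraries labelled FOXD1null, against 1364, 1251 and 1317 in 786-O. The fall was wide against the spread of either group, 394 ± 58.8 against 1311 ± 56.6 (SD, n = 3 each). It fell by 1.74 on the log2 scale (SE 0.11, limma adjusted p = 4.2e-05). KCNJ15 had 167, 313 and 265 normalized counts in the libraries labelled FOXD1null, against 94.9, 120 and 95.7 in 786-O. FOXD1null replicate 1 was nearest to 786-O, and the groups did not overlap. Its log2 fold change was 1.22 (SE 0.23, limma adjusted p = 0.0045), and 1.48 without that replicate. Per kilobase of exon, KCNJ16 stood at 62.2 and KCNJ15 at 24.0 in the libraries labelled FOXD1null, and KCNJ16 at 207 and KCNJ15 at 10.0 in 786-O. KCNJ10, for Kir4.1, has no row in the table used here.

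KCNJ8 encodes Kir6.1, the pore of the ATP-sensitive channel of vascular smooth muscle and pericytes. It had 26.9, 0 and 0.971 normalized counts in the libraries labelled FOXD1null, against 52.5, 63.5 and 65.3 in 786-O. The value of 0.971 is that of 1 read, so that at most 1 read was found in 2 of these libraries, while replicate 1 lay 44.2% of the way from their mean to that of 786-O. The log2 fold change was -4.01 (SE 1.06, limma adjusted p = 0.020) and -5.44 without that replicate (limma adjusted p = 2.4e-08), while DESeq2 on the recovered reads gave -2.70 and an adjusted p of 0.21. The ratio of the means was 0.154, a smaller change than the fold above, since a mean of logarithms weighs the library at 0 heavily. ABCC9, for the sulfonylurea receptor SUR2 that surrounds the Kir6.1 pore, had 523, 699 and 688 normalized counts in the libraries labelled FOXD1null, against 262, 330.0 and 243 in 786-O. Receptor and pore RNA thus moved apart, with ABCC9 up by a log2 fold change of 1.19 (SE 0.15, limma adjusted p = 7.8e-04). Fibroblast markers also fell: 5 of 8 had a row and 3 of those passed lower, with summed levels of 291 to 455 normalized counts in the libraries labelled FOXD1null and 764 to 907 in 786-O. LUM was at 18.3, 0 and 0 in the libraries labelled FOXD1null and at 125, 128 and 84.6 in 786-O, while DCN, COL1A2 and PDGFRA had no row. THY1 and COL3A1 had a row and did not pass. The part of these markers in the KCNJ8 values was not tested. The labels name only 786-O and its derivative, with no other cell type. In bulk RNA fewer cells of a type and less RNA per cell cannot be told apart.

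Among the 5 two-pore genes, 2 rose, 1 fell and 2 did not pass. KCNK3 encodes TASK-1, an acid-sensitive leak channel. It had 380.5, 379 and 363 normalized counts in the libraries labelled FOXD1null, against 154, 180.4 and 198 in 786-O. The libraries labelled FOXD1null agreed closely (374 ± 9.57 against 177 ± 22.0, SD, n = 3 each), and all of them lay above 786-O. Its log2 fold change was 1.08 (SE 0.11, limma adjusted p = 3.3e-04). KCNK1 encodes TWIK-1, a weakly conducting leak channel of kidney and brain. It had 601, 493 and 544 normalized counts in the libraries labelled FOXD1null, against 345, 346 and 295 in 786-O, again without overlap (log2 fold change 0.73, SE 0.11, limma adjusted p = 0.0016).

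KCNK2 encodes TREK-1, which opens on membrane stretch and with polyunsaturated fatty acids. Its normalized counts were 12.9, 4.04 and 0 in the libraries labelled FOXD1null, against 24.6, 18.1 and 31.3 in 786-O. Every library labelled FOXD1null lay below 786-O, but the spread within them was as wide as their mean (5.66 ± 6.62 against 24.7 ± 6.57, SD, n = 3 each). The log2 fold change was -2.60 (SE 0.86, limma adjusted p = 0.047), just inside the threshold. Without FOXD1null replicate 3, whose count was 0, it was -1.58 (limma adjusted p = 0.054), and without FOXD1null replicate 1 it was -3.48 (limma adjusted p = 1.7e-04). KCNK6, for TWIK-2, had 467, 306 and 288 normalized counts in the libraries labelled FOXD1null, against 337, 370 and 319 in 786-O, and KCNK7 had means of 16.7 in the libraries labelled FOXD1null and 12.6 in 786-O. Neither passed, and for KCNK6 the groups overlapped because replicate 1 of FOXD1null lay above all other libraries.

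The calcium-activated pores were KCNMA1 and KCNN4. KCNMA1 was the KCN gene with the most reads, at 6275, 8048 and 7894 normalized counts in the libraries labelled FOXD1null, against 6877, 6353 and 6731 in 786-O. The groups overlapped only because replicate 1 of FOXD1null was below all other libraries, and the log2 fold change was 0.15 (SE 0.10, limma adjusted p = 0.30). Without that replicate it was 0.26, with a limma adjusted p of 4.3e-05, so that this call turned on 1 library. KCNN4 encodes KCa3.1, the intermediate-conductance channel that calcium opens and that is known from lymphocytes, red cells and many carcinoma lines. It had 38.8, 13.1 and 14.6 normalized counts in the libraries labelled FOXD1null, against 49.1, 42.6 and 46.0 in 786-O. Replicate 1 of FOXD1null lay just below the 786-O libraries and the other 2 far below (log2 fold change -1.18, SE 0.39, limma adjusted p = 0.046). Without it the log2 fold change was -1.66, and edgeR on the recovered reads left the gene outside the threshold with an adjusted p of 0.066.

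Of the 11 auxiliary subunits, 1 was higher, 2 were lower and 8 did not pass. KCNIP3 and KCNIP1 belong to the same family, the calcium-binding KChIPs that attach to Kv4 pores, and moved in opposite directions. KCNIP3, also known as calsenilin and as the repressor DREAM, had 486, 587 and 495 normalized counts in the libraries labelled FOXD1null, against 103, 116 and 135 in 786-O. This was the largest rise of the 30 genes, 4.43-fold between the means, with no overlap (log2 fold change 2.14, SE 0.13, limma adjusted p = 3.5e-05). KCNIP1 had 11.9, 5.05 and 4.86 normalized counts in the libraries labelled FOXD1null, against 56.9, 72.5 and 66.2 in 786-O. The values lay apart in every library, at a ratio of the means of 0.111 (log2 fold change -3.10, SE 0.35, limma adjusted p = 4.4e-04). Of the other KChIPs, KCNIP2 had means of 60.8 in the libraries labelled FOXD1null and 58.8 in 786-O, and KCNIP4 had means of 48.9 in the libraries labelled FOXD1null and 64.3 in 786-O. Of the Kv4 pores they bind, KCND1 alone had a row, with the values given above.

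KCNAB3 encodes the cytoplasmic subunit Kv-beta-3. It had 42.0, 54.6 and 40.8 normalized counts in the libraries labelled FOXD1null, against 100.4, 93.4 and 58.9 in 786-O, with replicate 3 of 786-O nearest to the other line (log2 fold change -0.84, SE 0.24, limma adjusted p = 0.026). It no longer passed without FOXD1null replicate 3 or without replicate 1 or 2 of 786-O, with limma adjusted p-values of up to 0.11. KCNAB2, its more abundant relative, had 833, 1013 and 965 normalized counts in the libraries labelled FOXD1null, against 870, 799 and 804 in 786-O. Replicate 1 of FOXD1null lay among the 786-O libraries, and the log2 fold change was 0.18 (SE 0.09, limma adjusted p = 0.17), or 0.26 without that replicate (limma adjusted p = 0.0018). KCNMB4, the BK beta-4 subunit, had 224, 269 and 243 normalized counts in the libraries labelled FOXD1null, against 203, 219 and 224 in 786-O, and did not pass. KCNAB1, KCNE4, KCNE5 and KCNMB3 stood between 12.3 and 78.7 normalized counts in every library and did not pass either.

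**Figure D4:**
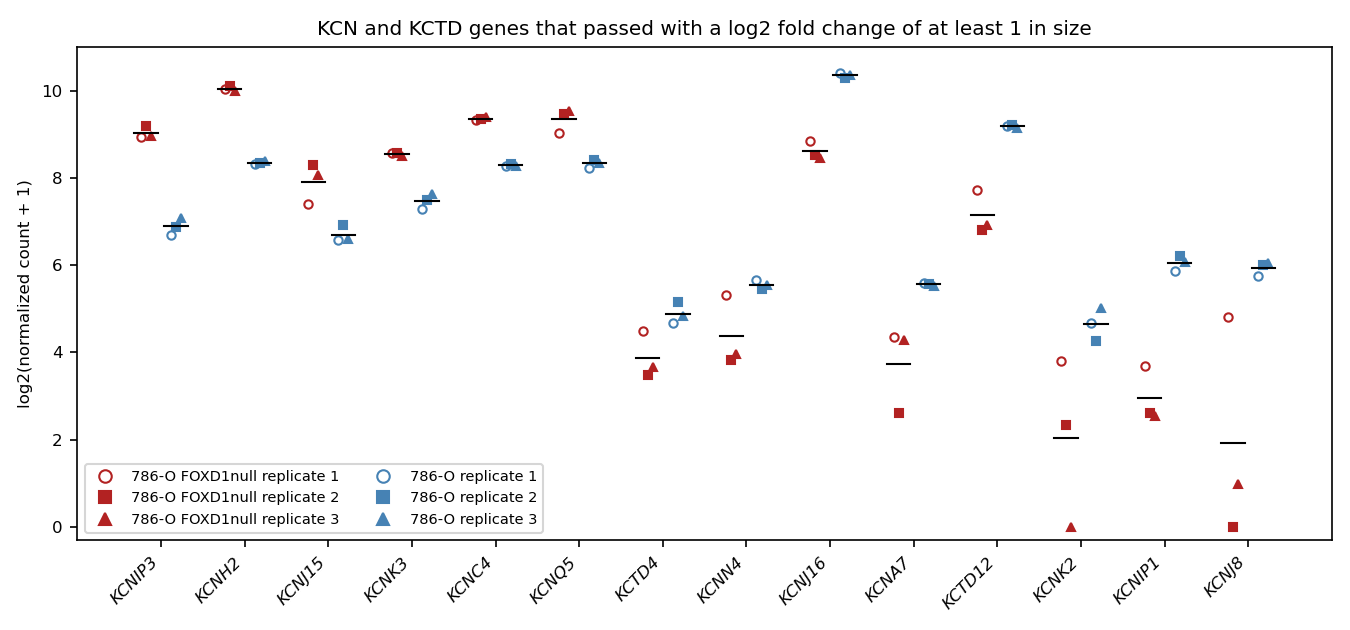
Values of each library, as log2(normalized count + 1), for the 12 KCN and 2 KCTD genes that passed with a change of 1 log2 unit or more; red marks the libraries labelled FOXD1null, blue marks 786-O, the symbol gives the replicate and the black lines are group means. Groups do not overlap for any gene shown, and replicate 1 of FOXD1null (open red circle) lies highest of its group in all 8 genes that fell.

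For the 8 KCN and KCTD genes that fell by a log2 of at least 1, replicate 1 of FOXD1null lay between 10.6% and 77.9% of the way from the mean of the other 2 libraries to the mean of 786-O, with a median of 33.2%. For the 6 KCN genes that rose by at least 1 the median was 9.37%, over a range of -4.87% to 65.7%, where all genes that rose that far had a median of 24.0%. KCNH2, KCNC4 and KCNK3 in that replicate were level with the other 2 libraries, while KCNJ15 and KCNQ5 lay at 65.7% and 49.8%. The part of this replicate in the folds of the low genes was not tested beyond leaving it out.

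Neuron markers rose as well, with 3 of 5 in the table and 2 of these passing higher, at summed levels of 351 to 543 normalized counts in the libraries labelled FOXD1null and 194 to 234 in 786-O. SNAP25 had 184 to 241 in the libraries labelled FOXD1null and 54.3 to 72.5 in 786-O, and ELAVL3 and STMN2 had no row. The part of neuron markers in the values of the KCN genes, whether these rose or fell, was not tested. Muscle markers summed to 21.4 to 153 normalized counts in the libraries labelled FOXD1null, the highest being replicate 1. In 786-O they summed to 16.7 to 1498, the highest being replicate 2. In that replicate KCNA7 and KCNJ8 stood at 46.2 and 63.5 normalized counts, close to or within the range of the other 786-O libraries.

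Of the 17 KCTD genes, 9 passed, 3 higher and 6 lower, or 52.9%. Of all genes 33.4% passed, and of protein-coding genes 38.2%. Only 2 of the KCTD genes, or 11.8%, passed with a change of 1 log2 unit or more. Without FOXD1null replicate 1, 5 passed higher and 7 lower, or 70.6%, where 55.0% of all genes and 63.1% of protein-coding genes passed. The median of the mean normalized count was 710 over the KCTD genes, 550 over all genes and 1021 over protein-coding genes. These shares were not matched on level. KCTD12, an auxiliary subunit of GABA-B receptors, had 211, 111 and 120.4 normalized counts in the libraries labelled FOXD1null, against 586, 587 and 565 in 786-O. It fell in every library by far more than the spread (log2 fold change -2.03, SE 0.22, limma adjusted p = 3.6e-04). GABBR1, which encodes a subunit of the receptor it binds, had means of 909 in the libraries labelled FOXD1null and 835 in 786-O and did not pass. KCTD4 had 21.6, 10.1 and 11.7 normalized counts in the libraries labelled FOXD1null, against 24.6, 34.5 and 27.6 in 786-O (log2 fold change -1.01, SE 0.34, limma adjusted p = 0.049). It lies at the edge of the threshold, and DESeq2 on the recovered reads left it outside with an adjusted p of 0.067.

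The adaptors of the KCASH group bring cullin-3 to their substrates and dampen Hedgehog signalling. KCTD11 had 542, 536 and 487 normalized counts in the libraries labelled FOXD1null, against 689, 590.2 and 649 in 786-O (log2 fold change -0.30, SE 0.09, limma adjusted p = 0.035). KCTD6 of the same group rose by 0.58 (SE 0.15, limma adjusted p = 0.020), and KCTD21 stood at -0.21 without passing. Of the BACURD adaptors, which take the GTPase RhoA to cullin-3, KCTD13 had means of 915 ± 55.5 in the libraries labelled FOXD1null and 617 ± 26.9 in 786-O (SD, n = 3 each) and rose by 0.57 (SE 0.08, limma adjusted p = 0.0012). KCTD10 had 2301, 2182 and 2194 normalized counts in the libraries labelled FOXD1null, against 2061, 2111 and 2164 in 786-O, with a log2 fold change of 0.08 that turned to -0.02 when the libraries were scaled to equal totals. KCTD3, the KCTD gene with the highest level per kilobase, had 3949, 5010 and 5000.3 normalized counts in the libraries labelled FOXD1null, against 4380, 4265 and 4403 in 786-O. Its groups overlapped through replicate 1 of FOXD1null (log2 fold change 0.09, limma adjusted p = 0.53), and without that replicate the log2 fold change was 0.20 (limma adjusted p = 2.8e-04), so that this call too turned on 1 library. KCTD9 rose by 0.38, while KCTD2, KCTD14 and KCTD17 fell by 0.35, 0.83 and 0.34, and KCTD1, KCTD5, KCTD7, KCTD18 and KCTD20 did not pass, with log2 fold changes of -0.10 to 0.19.

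Of 41 listed genes of the sodium pump, cotransporters, exchangers and other potassium-permeable proteins, 23 had a row. Of these, 4 rose, 3 fell and 16 did not pass. Thus 30.4% passed, where 33.4% of all genes and 38.2% of protein-coding genes did. Without FOXD1null replicate 1, 9 rose and 5 fell, or 60.9%, where 55.0% of all genes and 63.1% of protein-coding genes passed. Those that rose included ATP1B3, FXYD5 and SLC12A9. FXYD2, the gamma subunit that the sodium pump carries in kidney tubules, had 185, 216 and 208 normalized counts in the libraries labelled FOXD1null, against 436, 362 and 387 in 786-O, without overlap (log2 fold change -0.95, SE 0.11, limma adjusted p = 4.9e-04). SLC9A9, an endosomal exchanger of protons for sodium or potassium, had 23.7, 19.2 and 13.6 normalized counts in the libraries labelled FOXD1null, against 51.3, 56.2 and 53.4 in 786-O (log2 fold change -1.49, limma adjusted p = 0.0025).

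Of 34 listed partners and regulators of potassium channels, 21 had a row, of which 6 rose, 3 fell and 12 did not pass. Thus 42.9% passed, where 33.4% of all genes and 38.2% of protein-coding genes did. Without FOXD1null replicate 1, 13 rose and 4 fell, or 81.0%, where 55.0% of all genes and 63.1% of protein-coding genes passed. The median of the mean normalized count was 2801 over the 21 genes and 1021 over protein-coding genes, and the shares were not matched on level. Besides ABCC9, those that rose included AKAP9, GNB1, SHKBP1 and STK39. DLG4, which encodes the scaffold PSD-95 that clusters Kv1 channels, had 128, 126 and 133 normalized counts in the libraries labelled FOXD1null, against 389, 337 and 321 in 786-O (log2 fold change -1.42, SE 0.11, limma adjusted p = 8.6e-05). GNG2, a gamma subunit of the G proteins that open Kir3 channels, had 70.1, 45.5 and 51.5 normalized counts in the libraries labelled FOXD1null, against 156, 153 and 135 in 786-O (log2 fold change -1.42, SE 0.18, limma adjusted p = 7.9e-04). The groups were well apart for both genes. SGK1, a kinase that raises the surface number of several channels, was the third that fell.

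Some members lie where the genes around them moved too. For each member the median log2 fold change of the 20 nearest tested genes on each side was taken, which over 16726 tested genes lay between -0.29 and 0.21 from the 5th to the 95th percentile. It was -0.44 around KCNAB3 (chr17:7921859-7929856), whose own log2 fold change was -0.84, and -0.53 around KCTD11 (chr17:7351889-7354944), whose own was -0.30. It was -0.54 around DLG4 on the same chromosome and -0.34 around KCNN4 (chr19:43766533-43780976). KCTD11 therefore moved less than its neighbourhood. KCNAB3 and KCTD11 lie close together on chromosome 17, so that their medians may rest in part on the same neighbours. Whether DLG4 shares neighbours with them was not examined, so its median cannot be counted as a separate instance. The part of a change of these chromosome segments in the values of KCNAB3, KCTD11, KCNN4 and DLG4 was not tested. Around KCTD13 the median was 0.23. Around the other members that passed it lay between -0.15 and 0.13, including -0.01 around KCNJ16 on chromosome 17, and was 0.13 around KCNH2, -0.10 around KCNIP3, 0.08 around KCTD12 and 0.11 around KCNIP1.

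**Figure D5:**
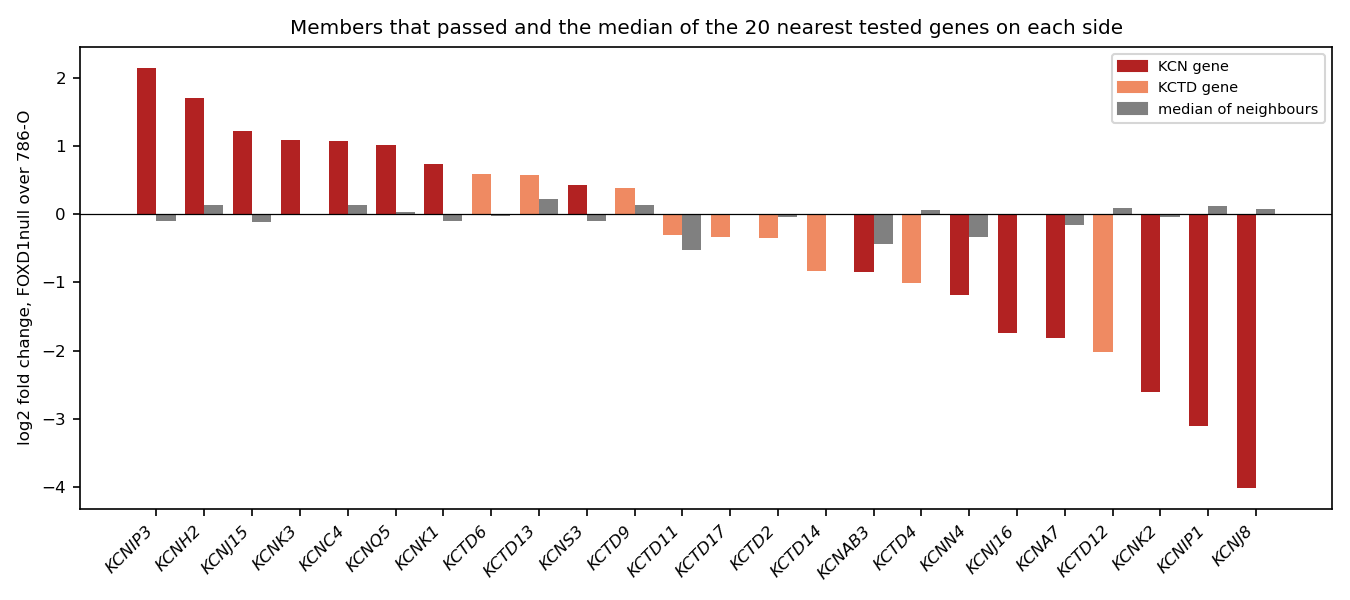
Log2 fold change, libraries labelled FOXD1null over 786-O, of each KCN (red) and KCTD (orange) gene that passed, beside the median of the 20 nearest tested genes on each side (grey). The grey bars stay near 0 for most members and reach -0.53 for KCTD11, -0.44 for KCNAB3 and -0.34 for KCNN4.

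Reads of some members cannot be told apart from those of other genes that share their exons, since the sources used here do not give the strand setting of the counting. Exons of other annotated genes covered 56.9% of the exon length of KCTD14, in part those of the readthrough gene NDUFC2-KCTD14, and 47.6% of KCNMB3, 46.8% of KCNH1 and 46.3% of KCNIP4. Of the KCN genes that passed, the highest shares were 10.7% for KCNJ8 and 8.22% for KCNQ5, and it was 0.00% for KCNH2, KCNC4, KCNK1, KCNK2, KCNK3, KCNS3, KCNN4, KCNA7 and KCNIP3.

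The 8 KCN genes that rose passed in all 15 alternatives run, which changed the test, the pseudocount, the filter, the scaling, the replicate block or left out 1 library. KCNH2 lay between 1.61 and 1.73 on the log2 scale over these, KCNIP3 between 2.05 and 2.24, and KCNS3 between 0.33 and 0.45. KCNJ16, between -1.86 and -1.66, and KCTD12, between -2.31 and -1.85, also passed in all 15, and KCNIP1 passed in all 14 in which it was tested. The other KCN genes that fell, all with means under 100 normalized counts, were less firm: KCNAB3 passed in 12 of 15, KCNA7 in 11 of 14, and KCNN4, KCNJ8 and KCNK2 in 8 of 14 each. Without replicates 1, 2 and 3 of FOXD1null the number of KCN genes that passed was 17, 12 and 11. Of all 16901 genes tested, 9302, 4139 and 4571 passed in these settings. Without replicates 1, 2 and 3 of 786-O, 10, 10 and 11 KCN genes passed, and 3621, 4014 and 3640 of all genes.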

How the data were processed

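RNA of 3 libraries labelled 786-O FOXD1null and 3 labelled 786-O parent was sequenced in paired ends. Per the labels and methods, the authors used Trimmomatic 0.36 for trimming, STAR 2.5.2b for alignment to hg38, featureCounts for unique reads in exons, and DESeq2. The deposited values are counts that the authors divided by 1 size factor per library, a normalized signal with no correction for gene length. The deposited columns of the authors' log2 fold change, their p-value and adjusted p-value, and the other value that gives the difference of their means were not used, nor were the authors' means per group.

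Names, positions and exon lengths came from GENCODE release 44 for 16747 of 16922 genes. Limma 3.58.1 (R 4.3.3, trended prior) was run on log2(normalized count + 1) for the 16901 genes with a mean of at least 10, with no covariate and with Benjamini-Hochberg adjustment over all of them. The added 1 shrinks fold changes of low genes, while a library at or near 0 can make the difference of mean logarithms larger than the ratio of the means, as for KCNJ8. All values of each library were whole multiples of 1 read within 0.001, that is 100% of values, and DESeq2 1.42.0 and edgeR 4.0.16 were run as alternatives on the recovered reads, which passed 5848 and 5675 genes. The fit was tested on simulated counts with the same variability setting for every gene, few changed genes and no library set apart. That setting differs from these libraries, so the simulation does not measure the error of the fit on them. Figures and summaries used Python 3.11.15, numpy 2.4.6, pandas 2.3.3 and matplotlib 3.10.9.

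Named genes were FOXD1, then every KCN or KCTD gene that passed with a change of 1 log2 unit or more, the gene with the highest level per kilobase in each role class, KCN genes that passed with a smaller change and a mean of at least 100, and the 3 largest changes that passed in each of the 2 lists of other genes. Other members are given by counts, ranges or means, and those given with values per library beyond this rule were chosen after their values were seen. Some genes of these 2 lists are counted but not reported here by name. The members, role classes and lists were chosen with earlier results of these data known.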

Additional observations from a re-analysis of the deposited data

How the results depend on the processing

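The alternatives were DESeq2, edgeR, pseudocounts of 0.1 and 5, no filter on the mean, a mean of at least 50, equal library totals, TMM factors, a replicate block and leaving out each library. Of 413 values of named genes under alternatives, 374 kept their direction and side of the threshold, 34 no longer passed, 3 passed newly and 2 changed sign. Those 2 were KCTD10 at -0.016 and KCTD3 at -0.0025 with equal library totals. Leaving out each library in turn gave 10 to 17 KCN genes, 4 to 12 KCTD genes and 3621 to 9302 genes over all, with the highest count each time without replicate 1 of FOXD1null. Equal library totals gave 8 higher and 8 lower KCN genes and 2040 higher and 3873 lower genes over all, against 2751 and 2888 in the analysis reported, and the cause was not tested. Deviations from the group means had correlations of -0.25, -0.23 and 0.01 between libraries with the same number. Between libraries with different numbers they ran from -0.17 to 0.26. With 3 libraries in each line, these values cannot decide whether the numbers pair the libraries. With the replicate block, 15 KCN genes, 7 KCTD genes and 4880 genes over all passed, and KCTD11 (-0.30, limma adjusted p = 0.063) and KCTD4 (-1.01, limma adjusted p = 0.085) were those lost among the KCTD genes. Low counts limit KCNJ8, KCNK2, KCNA7, KCNN4 and KCTD4.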
